A study of Homo sapiens with 12 samples.

Results

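RNA levels of 10 secreted signals were described in prostate cancer cells with lowered or raised GALNT7, a Golgi enzyme of mucin-type O-glycosylation. The genes were the chemokines CXCL1, CXCL2, CXCL3, CXCL5, CXCL8, CXCL10, CX3CL1, CCL2 and CCL20, together with the cytokine IL6. They were chosen by name as signals through which tumour cells reach leukocytes, with earlier results of these data known. All 10 were found among the 59424 genes of the table for each cell line. In CWR22Rv1 cells, a prostate cancer line grown out of a xenograft, 3 libraries of cells carrying a lentiviral control shRNA (shControl) were set against 3 libraries of cells carrying a lentiviral shRNA against GALNT7 (GALNT7 KD). In DU145 cells, a line from a brain metastasis of prostate cancer, 3 libraries of cells with the lentiviral ORF control (OE control) were set against 3 libraries of cells with a lentiviral GALNT7 ORF (GALNT7 OE). All 4 groups therefore carry a lentiviral insert, and the labels give the 3 libraries of each group as biological replicates. The sources used here do not say whether they came from separate transductions, so that the p-values measure the spread between these libraries only.

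Chemokines are small secreted proteins that draw leukocytes along a gradient. CXCL1, CXCL2, CXCL3, CXCL5 and CXCL8 carry the glutamate-leucine-arginine motif, bind the receptor CXCR2 (CXCL8 also binds CXCR1) and attract neutrophils. CXCL10 is an interferon-induced ligand of CXCR3, CCL2 draws monocytes through CCR2, CCL20 binds CCR6, and CX3CL1 is made as a membrane protein on a mucin-like stalk and binds CX3CR1. IL6 acts through IL6R and the shared signalling chain IL6ST. Several of these genes are textbook targets of NF-kB and are transcribed by tumour cells under inflammatory stimuli, and their short-lived mRNAs are cleared by RNA-binding proteins such as ZFP36 and ZC3H12A.

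The genes for CXCL1, CXCL2, CXCL3, CXCL5, CXCL6 and CXCL8 lie together on chromosome 4. The promoter sequences of 8 of the 10 genes were in the RefSeq table used (GRCh38.p14). A similar run of letters is shared by CXCL1, CXCL2, CXCL3, CXCL6, CXCL8 and IL6, which fell, and by CXCL5, which did not. The stretches of 30 bases below are shown because most of them hold these letters. They are written 5′ to 3′ on the strand of the gene, and the capitals mark GGGAATTTCCC, the longest run that the promoters of CXCL1, CXCL2, CXCL3, CXCL5 and CXCL6 share, or GGANTTTCC in CXCL8 and IL6. For CCL20, which also fell but holds neither, the capitals mark a match to the broader NF-kB consensus on the opposite strand.
CXCL1: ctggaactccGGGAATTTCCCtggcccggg
CXCL2: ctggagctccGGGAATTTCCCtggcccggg
CXCL3: ctggagctccGGGAATTTCCCtggcccggc
CXCL5: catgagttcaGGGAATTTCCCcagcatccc
CXCL6: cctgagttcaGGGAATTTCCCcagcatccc
CXCL8: ttgcaaatcgtGGAATTTCCtctgacataa
IL6: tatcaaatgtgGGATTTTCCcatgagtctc
CCL20: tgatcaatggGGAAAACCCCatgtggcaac

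These stretches are chr4:73869304-73869333 for CXCL1 (plus strand), chr4:74099254-74099283 for CXCL2 (minus), chr4:74038749-74038778 for CXCL3 (minus), chr4:73998749-73998778 for CXCL5 (minus) and chr4:73836578-73836607 for CXCL6 (plus). Those of CXCL8 (chr4:73740467-73740496), IL6 (chr7:22727117-22727146) and CCL20 (chr2:227813753-227813782) lie on the plus strand. The motif begins 79 bases before the RefSeq start of CXCL1 and 91 bases before that of CXCL5 and of CXCL8. GENCODE places the starts of CXCL2, CXCL3, CXCL5, CXCL6 and CXCL8 63 to 181 bases further upstream, that of IL6 1316 bases and that of CCL20 8103 bases further upstream. The stretches of CXCL2, CXCL3, CXCL5, CXCL6, IL6 and CCL20 thus lie inside the bounds of the GENCODE genes, and some of these bases may lie within transcripts. Over the 250 bases before the start, on both strands, GGGAATTTCCC was in 27 of 35116 promoters (0.0769%), among them those of CXCL1, CXCL2, CXCL3 and CXCL5, from which it was taken. GGANTTTCC, which the longer run contains, was in 1.45% of promoters and in 7 of the 8 genes, all but CCL20. Its open letter N takes in GGAATTTCC of CXCL8 and GGATTTTCC of IL6. Its share in these genes is therefore a description and not a test. The NF-kB consensus was in 9.96% of promoters and in 7 of the 8 genes, all but CXCL8. Over the same 250 bases CXCL1 and CXCL3 were 81.4% identical and CXCL1 and CXCL2 were 70.1% identical. CXCL5 was 85.3% identical to its paralog CXCL6 but 52.8% identical to CXCL1. A match is a description of these letters and not evidence of binding.

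The values are normalised counts, which are reads per gene divided by a size factor for the library, and whole reads could be recovered from them. The libraries held 18364512 to 22264533 reads in CWR22Rv1 and 21628718 to 24356910 in DU145. GALNT7 followed its labels. It was 999 ± 122 in shControl and 461 ± 53.7 in GALNT7 KD cells (mean ± SD, n = 3, log2 fold change -1.11, SE 0.129, limma adjusted p = 0.0051). In DU145 it went from 964 ± 75.8 in OE control to 2181 ± 176 with GALNT7 OE (1.18, SE 0.0863, adjusted p = 8e-05). The epithelial markers KRT8, KRT18, EPCAM and CDH1 were detected in both lines. The tables of the 2 lines were scaled separately, so that levels are compared within a line only.

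DU145 cells made most of these signals, and the cells with extra GALNT7 held less of nearly all of them. CXCL1 fell 12.9-fold, CCL20 4.71-fold, CXCL8 3.29-fold, CXCL2 3.21-fold, IL6 3.13-fold and CXCL3 2.21-fold, whereas CXCL5 was 1.86-fold higher, on the scale of log2(normalised count + 1). In all, 7 of the 10 genes averaged 5 or more normalised counts per library and were tested. Of these, 6 passed an adjusted p of 0.05 in the lower direction and 1 in the higher direction (limma on log2(normalised count + 1), Benjamini-Hochberg over all genes tested). The line changed widely, since 43.5% of the 18705 genes tested passed, 20.5% of them lower and 22.9% higher. A decrease of at least 1 on the log2 scale with an adjusted p under 0.05 was rarer, in 7.69% of the genes tested, and 6 of the 7 genes were among these. This cutoff was applied with the values known, downward and in this line only, and is a description. The median log2 fold change was -1.68 over the 7 genes and -0.011 over all genes tested. The libraries of the 2 groups did not overlap for any of the 7 genes, as was so for 55.3% of all genes tested. The exact two-sided permutation test gave p = 0.1 for each of them, the smallest that 3 against 3 libraries can give. In bulk RNA, fewer cells making a transcript and less of it per cell cannot be told apart.

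**Figure D1:**
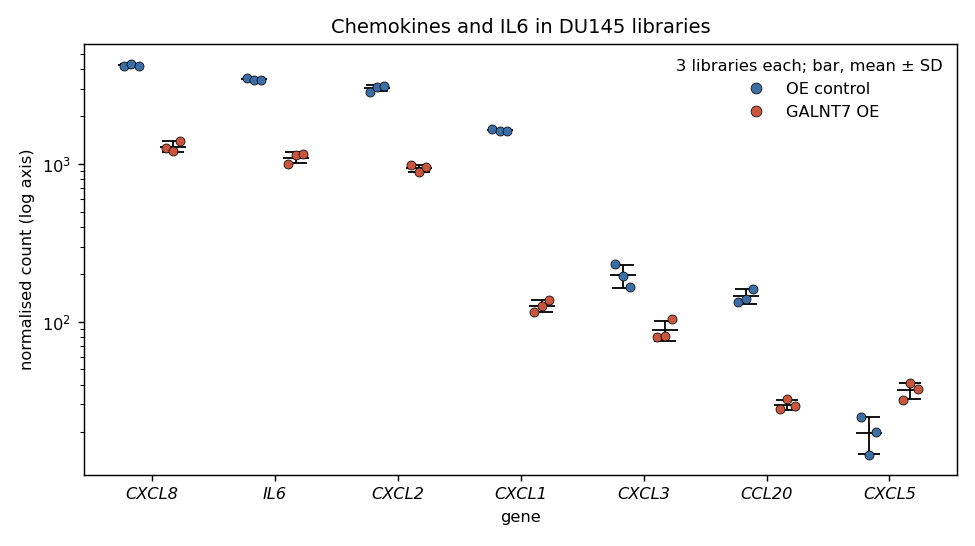
Normalised counts (log axis) of the 7 tested genes in each DU145 library, with OE control in blue, GALNT7 OE in red and bars for mean ± SD of 3 libraries. The red points lie below the blue points for CXCL8, IL6, CXCL2, CXCL1, CXCL3 and CCL20 and above them for CXCL5, from 14.3 to 24.8 in OE control and 32.1 to 40.7 in GALNT7 OE.

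CXCL1 (ENSG00000163739, chromosome 4, 73869393 to 73871242, GRCh38), a CXCR2 ligand first described as a growth-stimulating factor of melanoma cells, changed more than the other 6. Its normalised counts were 1674, 1620 and 1622 in the OE control libraries and 115, 126 and 137 in the GALNT7 OE libraries. Every control library was at least 11.8 times as high as any library with GALNT7 OE, and the spread within each group was small beside the gap. The log2 fold change was -3.69 (SE 0.0893, 95% confidence interval -3.9 to -3.48, limma adjusted p = 1.6e-06), and this interval did not reach those of the other tested genes.

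CXCL2 (ENSG00000081041, chromosome 4, 74097035 to 74099293), a close paralog of CXCL1 with the same receptor, had normalised counts of 2874, 3058 and 3123 in OE control and of 978, 892 and 951 in GALNT7 OE. The groups stood apart, with a log2 fold change of -1.68 (SE 0.0617, interval -1.83 to -1.54, limma adjusted p = 5.3e-06). CXCL3 (ENSG00000163734, chromosome 4, 74036589 to 74038807), the third of these paralogs, was lower in level and more variable. It had 232, 194 and 166 in OE control and 80.2, 81.3 and 104 in GALNT7 OE, so that the lowest control library was still above the highest with GALNT7 OE. Its log2 fold change was -1.15 (SE 0.175, interval -1.56 to -0.73, limma adjusted p = 0.002).

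The transcripts of CXCL1, CXCL2 and CXCL3 share sequence, and the counting could have split reads among them. Of the runs of 31 bases in their exons, 13.8% in CXCL1, 22.4% in CXCL2 and 9.54% in CXCL3 were also present in another of CXCL1, CXCL2, CXCL3, CXCL5, CXCL6, CXCL8 and IL6. A sum of CXCL1, CXCL2 and CXCL3, which such a split would not change, was taken after the values had been seen. It was 4780, 4872 and 4912 in OE control and 1174, 1099 and 1193 in GALNT7 OE, a log2 change of -2.07. The sum fell as its parts did, and the ratio of CXCL1 to CXCL2 within a library went from 0.519 to 0.583 in OE control to 0.118 to 0.144 in GALNT7 OE.

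CXCL8 (ENSG00000169429, chromosome 4, 73740506 to 73743716), the ligand of both CXCR1 and CXCR2, shared no such run with the others. Its normalised counts were 4195, 4325 and 4198 in OE control and 1265, 1203 and 1403 in GALNT7 OE. The control libraries lay within a narrow range far above the GALNT7 OE libraries. The log2 fold change was -1.72 (SE 0.0662, interval -1.88 to -1.56, limma adjusted p = 6.4e-06).

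CXCL5 (ENSG00000163735, chromosome 4, 73995642 to 73998779), which also signals through CXCR2, went the other way from a low level. Normalised counts were 24.8, 14.3 and 20.2 in OE control, from 26, 14 and 20 reads, and 32.1, 40.7 and 37.8 in GALNT7 OE, from 32, 44 and 36 reads. All GALNT7 OE libraries were above all control libraries, but the gap between the nearest libraries was of the size of the spread within the control group. The log2 fold change was 0.89 (SE 0.267, interval 0.26 to 1.53, limma adjusted p = 0.033). This call is the weakest of the 7. It was lost without OE control replicate 2 (adjusted p = 0.085), OE control replicate 3 (0.07), GALNT7 OE replicate 2 (0.098) or GALNT7 OE replicate 3 (0.084), and the adjusted p ranged from 0.011 to 0.098 over 17 alternative settings. The direction was the same in all of these.

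CXCL6, the nearest paralog of CXCL5, is not among the 10 genes but shares 2.18% of its runs of 31 bases with CXCL5. It had normalised counts of 69.7, 67.5 and 62.5 in OE control and 25.1, 23.1 and 26.2 in GALNT7 OE (log2 fold change -1.39, SE 0.173, limma adjusted p = 0.0008). The pair thus moved in opposite directions, and the ratio of CXCL5 to CXCL6, examined after the values had been seen, went from 0.212 to 0.356 in OE control to 1.28 to 1.76 in GALNT7 OE. Their sum was 86.3 ± 7.1 in OE control and 61.6 ± 3.9 in GALNT7 OE, a log2 change of -0.48.

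CCL20 (ENSG00000115009, chromosome 2, 227805739 to 227817564), which draws CCR6-bearing T cells and dendritic cells, was a less abundant transcript. It had 133, 140 and 162 in OE control and 28.1, 32.3 and 29.4 in GALNT7 OE. The groups were far apart, and the log2 fold change of -2.24 (SE 0.158, interval -2.61 to -1.86, limma adjusted p = 6.9e-05) was second in size to that of CXCL1.

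IL6 (ENSG00000136244, chromosome 7, 22725884 to 22732002), a cytokine that activates STAT3 in many tumour cells, had 3490, 3402 and 3421 in OE control and 996, 1145 and 1155 in GALNT7 OE. The control libraries were almost equal and were all above the libraries with GALNT7 OE. The log2 fold change was -1.65 (SE 0.0694, interval -1.81 to -1.48, limma adjusted p = 8.4e-06). IL6 and CXCL8 kept their proportion, with a ratio within a library of 0.787 to 0.832 in OE control and 0.788 to 0.952 in GALNT7 OE. The ratio of CXCL2 to CXCL8 also overlapped between the groups, at 0.685 to 0.744 and 0.678 to 0.773. That of CXCL1 to CXCL8 did not, at 0.375 to 0.399 and 0.0911 to 0.104. These ratios were chosen with the values known and carry no test.

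The other 3 genes were near the limit of detection in DU145 and were not tested. CXCL10 had 2, 7 and 2 reads in OE control and 1, 0 and 0 in GALNT7 OE, a ratio of 11.1 with an exact 95% counting interval of 1.61 to 476. CCL2 had 2, 1 and 2 reads in OE control and no read in GALNT7 OE, which makes it at least 1.66-fold higher in OE control when the group without reads is set at 3 reads over its libraries. CX3CL1 had 2, 1 and 0 reads against 1, 0 and 1, a ratio of 1.51 (0.173 to 18). For CXCL10 and CCL2 the few reads were nearly all in OE control, though the CCL2 intervals overlapped. For CX3CL1 no difference was detectable at this depth. These intervals cover counting error only, and the floor leaves out that of the OE control reads.

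Levels of different genes were compared as normalised counts per kilobase of exon. In OE control the order was CXCL2 at 2012 ± 86.2, CXCL8 at 1864 ± 32.6, IL6 at 1661 ± 22.2 and CXCL1 at 1264 ± 23.7 (mean ± SD, n = 3), and no neighbours among these overlapped. CCL20 at 91 and CXCL3 at 89 overlapped each other, and CXCL5 at 7.79 overlapped CXCL10 at 3.14, with CCL2 and CX3CL1 lowest. Thus 4 genes made a high tier in the control cells, and CXCL1 left it in the cells with GALNT7 OE. There CXCL2 at 627, CXCL8 at 567 and IL6 at 531 overlapped as neighbours, and CXCL1 at 97.3 stood closer in ratio to CXCL3 at 39.9 than to IL6. CCL20 at 18.8 and CXCL5 at 14.5 did not overlap and were nearer to each other than in OE control. With the length of the longest transcript in place of all exons, CXCL8 at 2486 and CXCL2 at 2478 changed places in OE control. On that length CCL20 was at 173 and CXCL3 at 120, so that their closeness depended on the length used. Over all 10 genes the summed normalised count was 12628, 12763 and 12717 in OE control and 3497, 3520 and 3819 in GALNT7 OE, which is 3.52-fold lower. The share of this sum that came from CXCL1 went from 12.7 to 13.3% to 3.3 to 3.6%.

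**Figure D2:**
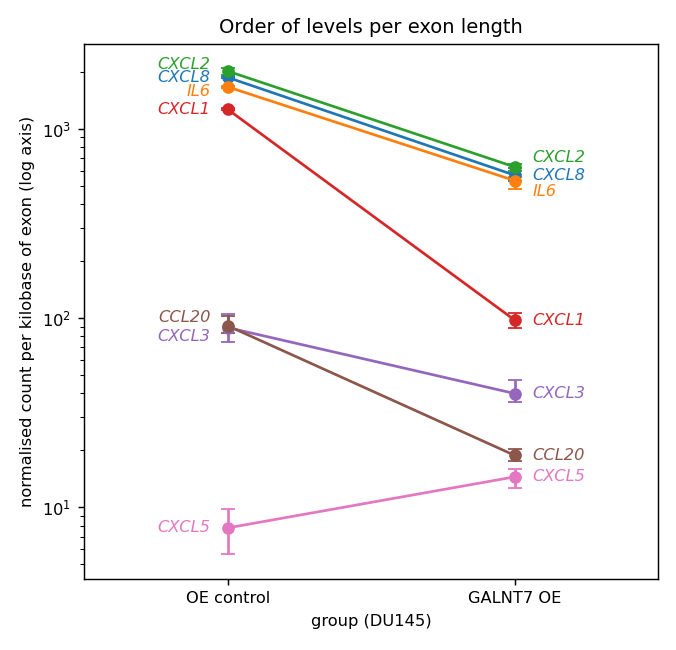
Mean normalised count per kilobase of exon (log axis) of the 7 tested genes in OE control and GALNT7 OE cells of the DU145 line, with bars from the lowest to the highest of 3 libraries. CXCL1 drops from 1264 to 97.3, away from CXCL2, CXCL8 and IL6, and CCL20 and CXCL5 draw together at 18.8 and 14.5.

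CXCL8, CXCL6, CXCL1, CXCL5, CXCL3 and CXCL2 lie in this order within 358.8 kilobases of chromosome 4, counted between the start sites of CXCL8 and CXCL2. CXCL10 starts 2283 kilobases from CXCL8, and the stretch up to it holds 51 annotated genes, of which 21 were tested in DU145. Among the 16 of these that are not under description, 3 fell and 4 rose, shares near the 20.5% and 22.9% of all genes tested. Those that fell were CXCL6, EREG (log2 fold change -0.24, limma adjusted p = 0.019) and the antisense RNA AC239584.1 (-1.52, adjusted p = 0.022, from 40 reads). The 4 that rose were MTHFD2L at 0.53, G3BP2 at 0.26, USO1 at 0.45 and SDAD1 at 0.46. MTHFD2L, a mitochondrial folate enzyme, starts next to CXCL2 and rose (adjusted p = 0.026), whereas the growth factor gene AREG had -0.02 (adjusted p = 0.8). The long noncoding RNA LINC02562, from 31 reads, had -1.51 and did not pass (adjusted p = 0.054), with a range of 0.031 to 0.15 over 12 alternative settings. The call of USO1 held without any single library. Those of EREG (without OE control replicate 1 or 2), AC239584.1 (OE control replicate 1 or 3 or GALNT7 OE replicate 3) and MTHFD2L (OE control replicate 2 or 3 or GALNT7 OE replicate 1 or 3) were lost, with adjusted p up to 0.082. So were those of G3BP2, without any library but GALNT7 OE replicate 1, and SDAD1, without OE control replicate 1 or 3 or GALNT7 OE replicate 1 or 2 (up to 0.12). The stretch was examined with the values known, and its genes were named on that account.

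**Figure D3:**
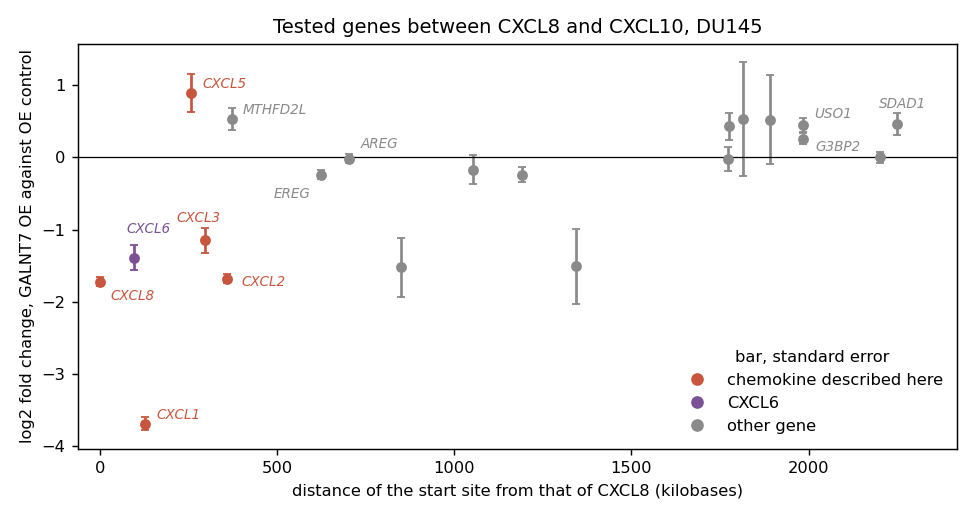
Log2 fold change (GALNT7 OE against OE control, with standard error) of the 21 tested genes between CXCL8 and CXCL10 in DU145 cells, by the distance of their start sites from that of CXCL8 in kilobases. CXCL1 is lowest at -3.69 among chemokines at -1.72 to -1.15, and CXCL5 stands at 0.89 between them. The genes further along lie from -0.24 to 0.53, except AC239584.1 at -1.52 and LINC02562 at -1.51.

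The genes whose values ran most like these over the 6 DU145 libraries were sought among 13637 genes with a mean of at least 50, by the root mean square distance of centred log2 values. CXCL1 was nearest to SOD2, the mitochondrial superoxide dismutase, at a distance of 0.085 (log2 fold change of SOD2 -3.58), and its nearest companion among the 10 genes was CCL20, at 0.739. CXCL8 was nearest to BCAM, a laminin-binding adhesion molecule, at 0.0331, and to SGPP2, a sphingosine phosphate phosphatase, at 0.0376. IL6 was nearest to NABP1, a single-stranded DNA binding protein, at 0.0355, and to DDX58, the viral RNA sensor RIG-I, at 0.0402. CXCL2 and CXCL8 lay 0.0683 apart and IL6 and CXCL8 0.0926 apart. The distances describe these 6 libraries and are dominated by the difference between the 2 groups.

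In CWR22Rv1 cells most of the 10 signals were not expressed at this depth. CXCL1, CXCL3, CXCL5, CXCL10, CCL2 and CCL20 had no read in any of the 6 libraries. With 64910344 reads over the shControl libraries and 59182120 over the GALNT7 KD libraries, a count of 0 allows a level of up to 0.0462 and 0.0507 CPM, taking 3 reads over the group as the limit. CXCL2 had 0, 1 and 0 reads in shControl and 1, 0 and 0 in GALNT7 KD, and IL6 had 1, 0 and 1 against 0, 1 and 0. CXCL8 had 1, 6 and 2 reads in shControl and 1, 0 and 3 in GALNT7 KD, a ratio of 2.06 with an exact 95% counting interval of 0.574 to 9.13. No difference in these 3 genes was detectable at this depth. All 10 genes together had 55 reads in the line, 44 of them in shControl.

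CX3CL1 (ENSG00000006210, chromosome 16, 57372458 to 57385048), fractalkine, was the only one of the 10 that reached the filter in CWR22Rv1, and it did so through the shControl libraries. It had 7, 5 and 20 reads in shControl and 1, 2 and 2 in GALNT7 KD, which are normalised counts of 6.53, 4.42 and 18.3 against 0.967, 2.13 and 1.93. The groups did not overlap, as for 32.5% of the 17906 genes tested, and replicate 3 held most of the shControl reads. The log2 fold change was -1.82 (SE 0.608, interval -3.26 to -0.37), with a limma adjusted p of 0.12 that did not pass the threshold and an unadjusted p of 0.021. In this comparison 9.06% of the genes tested passed. The edgeR adjusted p was 0.089, DESeq2 gave none, and the adjusted p ranged from 0.089 to 0.25 over 14 alternative settings. Without shControl replicate 3 the gene fell under the filter and had no value.

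**Figure D4:**
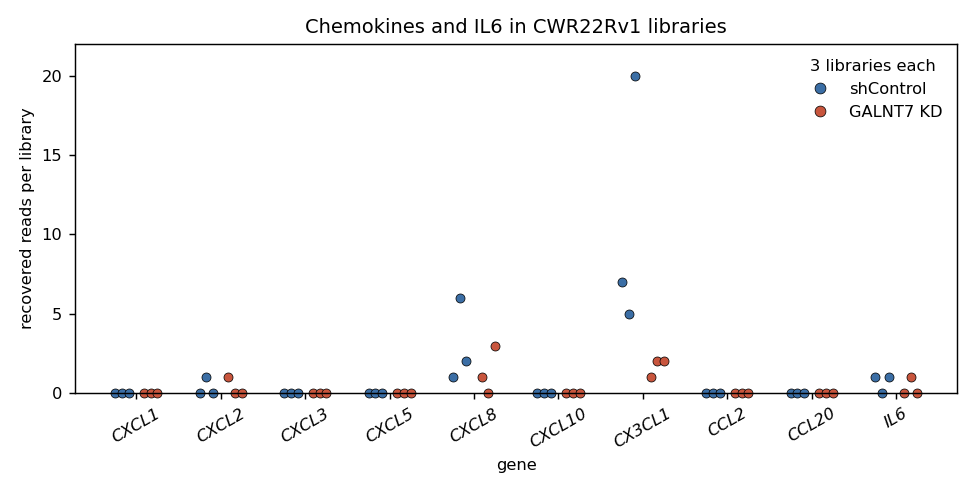
Recovered reads per library of the 10 genes in CWR22Rv1 cells, with shControl in blue and GALNT7 KD in red (3 libraries each). Only CX3CL1 has more than 6 reads in any library, with 7, 5 and 20 reads in shControl and 1, 2 and 2 in GALNT7 KD.

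Other chemokines, from a list of 34, were sparse in both lines. In DU145, 16 had no read, 13 were under the filter and 5 were tested, of which 4 fell, beside 20.5% of all genes tested. CCL5, a chemoattractant of T cells and monocytes, had 206, 209 and 181 in OE control and 14, 19.4 and 21 in GALNT7 OE, with a log2 fold change of -3.40 (SE 0.197, limma adjusted p = 2.9e-05). CXCL6 is given above. CXCL16, a membrane-bound chemokine, fell by 0.43 on the log2 scale (adjusted p = 0.0039) and CCL28, a mucosal chemokine, by 0.30 (adjusted p = 0.04). The call of CCL28 was lost when any of the 6 libraries was left out, with an adjusted p of up to 0.11. In CWR22Rv1, 24 of the 34 had no read, 5 were tested and CXCL13 alone passed, beside 9.06% of all genes tested. CXCL13, which guides B cells through CXCR5, had 4, 7 and 6 reads in shControl and 44, 47 and 44 in GALNT7 KD, a log2 fold change of 2.92 (SE 0.286, limma adjusted p = 0.003).

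Most receptors for these signals had few or no reads. In DU145, CXCR1, CXCR2, CCR2 and CCR6 had no read, CXCR3 had at most 2 reads and CX3CR1 at most 5 in any library. In CWR22Rv1, CXCR1, CXCR3, CCR2 and CCR6 had no read and CXCR2 had at most 2. CX3CR1 had 12, 8 and 6 reads in shControl and 3, 2 and 1 in GALNT7 KD, and with a mean normalised count of 4.96 it was under the filter. The IL6 receptor chains were expressed in both lines. IL6ST had 6458, 6228 and 5755 in OE control and 4569, 4878 and 5475 in GALNT7 OE (log2 fold change -0.31, SE 0.0768, limma adjusted p = 0.016), and IL6R had a log2 fold change of 0.30 that did not pass (adjusted p = 0.12). In CWR22Rv1 IL6R had 1073, 1199 and 1107 in shControl and 1568, 1636 and 1832 in GALNT7 KD (log2 fold change 0.57, SE 0.082, limma adjusted p = 0.01). IL6ST had 797, 742 and 902 against 1285, 1692 and 1141 (0.74, SE 0.154, adjusted p = 0.033). The libraries of IL6ST did not overlap in either line, as for 55.3% of all genes tested in DU145 and 32.5% in CWR22Rv1. The difference between the lines was not tested. Over all genes tested, 20.5% fell and 22.9% rose in DU145, and 9.06% passed in CWR22Rv1. Of the 25 receptors on the list, 5 were tested in DU145 and 2 fell, and 7 were tested in CWR22Rv1, of which 2 rose and 1 fell. The remaining calls were CXCR4, the CXCL12 receptor, with 94.5, 98.2 and 86.6 in OE control and 10, 10.2 and 6.29 in GALNT7 OE (log2 fold change -3.28, limma adjusted p = 8.7e-05), and ACKR3, which also binds CXCL12, with 22, 17 and 35 reads in shControl and 3, 5 and 5 in GALNT7 KD (-2.10, adjusted p = 0.026).

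The IL6ST and ACKR3 calls depended on single libraries. In CWR22Rv1 that of IL6ST was lost without shControl replicate 1, 2 or 3 or GALNT7 KD replicate 1 (adjusted p up to 0.11), and in DU145 without OE control replicate 1 or 2 (up to 0.057). The ACKR3 call was lost without any library but shControl replicate 2 (up to 0.093).

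Among 25 other secreted cytokines, 23 of which were found in the tables, 15 were tested in DU145 and 7 fell, with a median log2 fold change of -0.84. Over all genes tested, 20.5% fell. IL24, a cytokine of the IL10 family, had 1645, 1662 and 1841 in OE control and 72.2, 159 and 44.1 in GALNT7 OE (log2 fold change -4.41, SE 0.415, limma adjusted p = 0.00023). TNFSF10, the death ligand TRAIL, had 237, 220 and 185 against 9.02, 37.9 and 13.6 (-3.58, SE 0.473, adjusted p = 0.0011), and IL32 fell by 1.61 on the log2 scale (adjusted p = 2.6e-05). TNFSF15 fell by 1.71 from a mean of 14.3 (adjusted p = 0.031), a call lost without OE control replicate 1 or 2 or GALNT7 OE replicate 1 or 2 (up to 0.1). The others that fell were IL11 and LIF, both IL6-family cytokines that signal through IL6ST, each at -0.84, and CSF1, the macrophage growth factor, at -0.75. In CWR22Rv1, where 9.06% of all genes tested passed, 9 of the 23 were tested and TNFSF15 alone passed, at -1.37 (SE 0.228, adjusted p = 0.017). That call was lost without any shControl library or GALNT7 KD replicate 1 (up to 0.065).

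Factors that bind cytokine mRNAs and control their decay or translation, 14 in all, were tested in both lines. In DU145, 7 fell and 3 rose, beside 20.5% and 22.9% of all genes tested, and the median log2 fold change was -0.11. ZC3H12A, the endonuclease Regnase-1, which cuts the mRNA of IL6, had 1742, 1878 and 1897 in OE control and 228, 304 and 177 in GALNT7 OE (log2 fold change -2.99, SE 0.184, limma adjusted p = 3.8e-05). NFKBIZ, which is on this list but acts as an NF-kB cofactor at promoters such as that of IL6, had 1463, 1451 and 1199 against 255, 206 and 223 (-2.58, SE 0.118, adjusted p = 1.1e-05). ZFP36L1, a paralog of ZFP36 that binds AU-rich elements, had 17122, 16610 and 16198 against 5775, 4937 and 4840 (-1.69, SE 0.0703, adjusted p = 8.1e-06), and ZC3H12C fell by 1.35 on the log2 scale (adjusted p = 3e-05). ZFP36 itself fell by 1.08 (adjusted p = 2.6e-05), ARID5A by 0.62 (adjusted p = 0.035) and TIA1 by 0.20 (adjusted p = 0.033). HNRNPD, an AU-rich element binding protein, rose by 0.84 on the log2 scale (adjusted p = 3.5e-05), ELAVL1, known as a stabiliser of such mRNAs, by 0.55 (adjusted p = 0.00014) and RC3H2, a paralog of the decay factor Roquin-1, by 0.24 (adjusted p = 0.032). The 4 that did not pass were TIAL1 at 0.25, KHSRP at 0.07, ZFP36L2 at 0.04 and RC3H1, which encodes Roquin-1, at -0.02. The calls of ARID5A, TIA1 and RC3H2 were lost when certain libraries were left out, ARID5A and TIA1 without any but GALNT7 OE replicate 2 and RC3H2 without any but OE control replicate 2 or GALNT7 OE replicate 3 (up to 0.1). In CWR22Rv1, where 9.06% of all genes tested passed, 2 of the 14 did, ZFP36L2 at -0.38 (adjusted p = 0.011) and HNRNPD at -0.24 (adjusted p = 0.031). The call of ZFP36L2 was lost without shControl replicate 1 or 3 or GALNT7 KD replicate 1 (up to 0.055), and that of HNRNPD without any shControl library or GALNT7 KD replicate 1 (up to 0.11).

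Of 6 proteases that cleave chemokines or release them from membranes, 5 were tested in each line. Over all genes tested, 43.5% passed in DU145 and 9.06% in CWR22Rv1. In DU145, DPP4, which trims chemokines such as CXCL10, had 280, 235 and 329 in OE control and 85.2, 200 and 111 in GALNT7 OE (log2 fold change -1.17, SE 0.309, limma adjusted p = 0.021). The call was lost without OE control replicate 1 or 3 or GALNT7 OE replicate 3 (up to 0.067). MMP14, a membrane metalloprotease, fell by 1.15 on the log2 scale (adjusted p = 4e-05). ADAM10, a sheddase of CX3CL1 and CXCL16, fell by 0.13 (adjusted p = 0.046), which was lost without any library but GALNT7 OE replicate 1 (up to 0.13). CTSL, a lysosomal protease, rose by 0.20 (adjusted p = 0.0047), and in CWR22Rv1 it rose by 0.46 and was the only one of the 5 to pass (adjusted p = 0.0077).

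**Figure D5:**
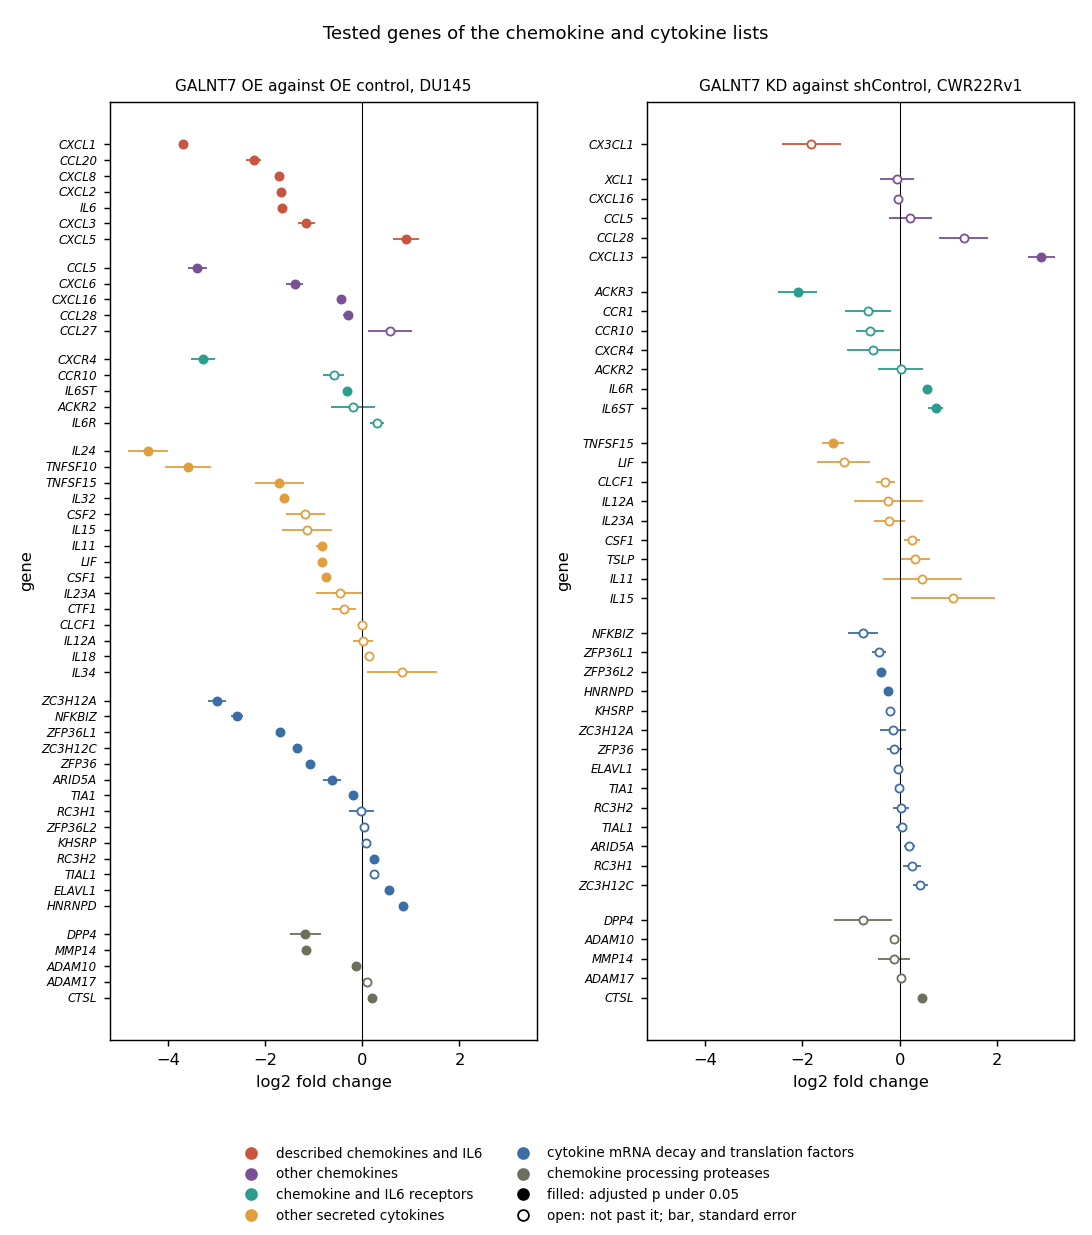
Log2 fold change with standard error of each tested gene of the chemokines and IL6 described here and of the 5 related lists, in DU145 (left) and CWR22Rv1 (right). Filled points passed a limma adjusted p of 0.05, and in DU145 6 of the 7 described genes, 4 of 5 other chemokines and 7 of 15 other cytokines are filled on the lower side. Of all genes tested in DU145, 20.5% passed on that side.

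Other measures moved with the DU145 groups. Mitochondrial genes took 4.38 to 5.27% of reads in OE control and 1.69 to 3.45% in GALNT7 OE, and their part in the results was not tested. Of 8 leukocyte markers the summed normalised count was 2699 to 2861 in OE control and 1031 to 1208 in GALNT7 OE. Most of it was CD68, a lysosomal protein that marks macrophages, with a mean of 2675 in OE control and 1035 in GALNT7 OE (log2 fold change -1.37, limma adjusted p = 1.5e-05). CD14, a monocyte marker, also fell, from 90.4 to 28.1 (-1.60, adjusted p = 0.0031). LYZ and ITGAM were tested and did not pass, PTPRC and CSF1R were under the filter, and CD3E had no read. The part of these markers in the results was not tested. Of 6 fibroblast markers the sum was 305 to 431 against 73 to 165. It was nearly all COL1A1, with a mean of 334 against 90.6 (-2.01, adjusted p = 0.0059), whereas PDGFRB had 9.31 against 8.82, COL1A2, COL3A1 and DCN were under the filter and LUM was at 0. Its part in the results was not tested. In CWR22Rv1 the leukocyte sum was 122 to 140 in shControl and 137 to 197 in GALNT7 KD, with ITGAM and CD3E at 0, and the fibroblast sum was 296 to 368 against 715 to 800. Most of the latter was LUM, with a mean of 225 against 626 (log2 fold change 1.47, limma adjusted p = 0.0016).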

How the data were processed

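RNA-seq libraries (RNeasy extraction, TruSeq Stranded mRNA kit) came from 12 cell line samples in 4 groups of 3. The authors deposited one signal table per cell line, holding normalised counts of 59424 genes. The submitters' processing notes name Salmon, DESeq2, R 3.5.3, FastQC and hg38 without roles, so that the recovered reads may be rounded estimates. Dividing each library by its smallest value above 0 gave whole reads for 100% of values within 0.01. Names and exon lengths came from GENCODE 29 (94.4% of identifiers) and promoters from RefSeq.

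Each line was fitted alone with limma 3.58.1 (R 4.3.3; lmFit, eBayes with trend) after adding 1 to the normalised count and taking log2. Genes averaging under 5 over its 6 libraries were left out. A fold change on this scale understates that of low genes. The threshold was a Benjamini-Hochberg adjusted p of 0.05 over all genes tested. Scripts were checked on simulated data. Alternatives included edgeR 4.0.16 and DESeq2 1.42.0 on the recovered reads, other pseudocounts, filters and scalings, and each library left out. The 10 genes and the related lists were chosen with earlier results of these data known. Besides the 10 genes, GALNT7 and their receptors, up to 4 called genes per list and comparison were named by size of change, and further genes, among them the neighbours on chromosome 4 and the other called genes of the cytokine, decay factor and protease lists, were named after their values were seen. Library pairs of one group differed by more than sampling noise.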

Additional observations from a re-analysis of the deposited data

How the results depend on the processing

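In DU145 the calls of CXCL1, CXCL2, CXCL3, CXCL8, CCL20 and IL6 held under all 17 alternatives, and that of CXCL5 under 9. The sum of CXCL5 and CXCL6, taken after seeing the data, gave -0.48. In OE control CXCL6 had a mean of 66.5 and CXCL5 of 19.8. In GALNT7 OE CXCL6 had a mean of 24.8 and CXCL5 of 36.8. The sum thus mixed the fall of CXCL6 with the rise of CXCL5. It is not another value for the 0.89 of CXCL5. The 75th percentile scaling moved the median of all genes in DU145 to -0.108 on the log2 scale, from -0.011, and with it the call of CTSL was lost (adjusted p = 0.073). Over the libraries left out in turn, the genes called were 6 to 7 of the 7 in DU145. In knockdown they were 1 to 2 receptors (3 with all libraries), 0 to 1 other cytokines (1) and 0 to 3 decay factors (2). In overexpression they were 1 to 2 receptors (2), 2 to 5 proteases (4) and 3 other chemokines (4). They were also 6 to 8 other cytokines (7) and 7 to 10 decay factors (7 lower and 3 higher with all libraries). At an adjusted p of 0.01 they were 0 receptors, 0 other cytokines and 0 decay factors in knockdown, and 1 receptor and 2 proteases in overexpression. Without a trend in eBayes, 1 decay factor was called in knockdown. The cause of these losses was not tested.

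Same-numbered libraries correlated at -0.011 to 0.0747 after centring. In DU145 they had 0.0432, 0.0428 and 0.0159, above the -0.0447 to 0.00416 of the other pairs. In CWR22Rv1 the other pairs, at -0.0644 to 0.0737, overlapped them. The mitochondrial share was lowest in replicate 2 of every group. Whether same-numbered libraries shared a batch was not tested. With the replicate number as a block, 1002 genes passed in knockdown in place of 1623 and 7405 in overexpression in place of 8132. Under the block 6 of the 7 genes passed in DU145 (CXCL5 adjusted p = 0.074), and in knockdown 1 receptor and 0 other cytokines did. In knockdown DESeq2 called 2642 genes and eBayes without a trend 996. Depth limited CXCL10, CX3CL1 and CCL2 in DU145 and all 10 genes in CWR22Rv1, where the filter at a mean of 20 gave no value for CX3CL1.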

Other observations

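In DU145, IL1B, an upstream inducer of many of these chemokines in other settings, had 5, 10 and 14 reads in OE control and no read in GALNT7 OE. The ratio was 9.78 with 3 reads set over the GALNT7 OE group. ACKR3 had 6, 4 and 1 reads in OE control and no read in GALNT7 OE, a ratio of 3.64 on the same floor. Both ratios leave out the counting error of the OE control reads. IL1B and ACKR3 were singled out after their values were seen, and neither was tested.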
